A study of Homo sapiens with 68 samples.

Results

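ENAH, EPB41, CTNND1, KIF21A, SYNE2, FGFR2, MAP3K7, ECT2, PICALM and CLSTN1 are 10 human genes with exons whose splicing is known to respond to RBFOX2. Their peaks were taken from 68 peak lists of a protein-RNA crosslinking method by the Ensembl gene identifier that each peak name carries. The lists include libraries titled as made without ultraviolet light and libraries of other gel regions. The identifiers, in the order of the names above, are ENSG00000154380, ENSG00000159023, ENSG00000198561, ENSG00000139116, ENSG00000054654, ENSG00000066468, ENSG00000135341, ENSG00000114346, ENSG00000073921 and ENSG00000171603. The 10 genes held 35983 of 15800601 listed peaks and were among 22843 genes with a peak in at least 1 library. They also held 120 of 62725 RBFOX2 sites. A site is a stretch where peaks of both RBFOX2 replicates from 50000 cells, prepared without gel purification (without PAGE), overlapped on 1 strand; stretches under 30 nt apart were joined.

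The libraries were made by TLC-CLIP from HEK293T, an established line derived from human embryonic kidney. In this method ultraviolet light links proteins to RNA, RNase trims the RNA, an antibody recovers 1 protein, and the attached RNA fragments are sequenced. The compared groups have 2 libraries each and cover RBFOX2 (antibody named RBM9), hnRNPA1, hnRNPc and hnRNPI. At 50000 cells and 0.005 U of RNase, each protein was profiled with PAGE, without PAGE, and without PAGE but with RecJ (named RecJ in the titles, where the design text speaks of an additional adapter removal). RBFOX2 and hnRNPc were also profiled from 10000 cells with 0.001 U and 1000 cells with 0.0001 U. Libraries titled noUV, with PAGE and without PAGE, exist for each of the 4 proteins; their protocol text is the same as that of the crosslinked libraries, so the missing ultraviolet step is known from the titles and the design text only. The remaining hnRNPA1 and hnRNPc libraries were those of medium RNase, 5k cells, 500 cells and other gel regions. They were used only for the totals of peaks and genes, and for the span from the first to the last listed peak of each gene. Nothing in the labels says that the 2 libraries of a group came from separate cultures, so the p-values measure the spread between these libraries, which may be technical.

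RBFOX2 is a splicing factor whose RNA-recognition motif binds the element UGCAUG. Binding downstream of a regulated exon commonly goes with inclusion of that exon, and binding upstream of it with skipping. hnRNPA1 is a splicing repressor, hnRNPc binds uridine tracts, and hnRNPI, also called PTB, binds pyrimidine-rich tracts next to exons. The 10 genes are a mixed group of cytoskeletal, adhesion, signalling and membrane-traffic genes. Neither genome sequence nor gene annotation of the build of the lists (hg19, per the submitters' processing notes) was used here. Positions therefore carry no exon or intron label, and no motif was searched.

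The files hold peaks and no totals of sequenced reads. Sequencing depth is therefore unknown, and its part in the different list lengths was not tested. The RBFOX2 lists without PAGE held 157375 and 161434 peaks, against 341973 to 523402 for the other proteins without PAGE. 1 hnRNPc library with PAGE, replicate 1 at 50000 cells and 0.005 U, held 3268 peaks and stands apart from every other crosslinked library at that cell number. Of the 10 genes, 4 had a peak in that library, while all 10 had a peak in each of the other crosslinked libraries compared. The 4 RBFOX2 libraries without ultraviolet light held 22911 to 61242 peaks. No library compared here comes from cells lacking a target protein, so the labels have no knockdown check.

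The 120 RBFOX2 sites were spread very unevenly over the 10 genes. ENAH, an actin regulator of the Ena/VASP family, held 43 sites along a covered span of 163 kb. The covered span of a gene runs from its first to its last listed peak in any library, including stretches without peaks. EPB41, the membrane-skeleton protein 4.1, held 23 sites, CLSTN1 (calsyntenin-1, a transmembrane cargo adaptor) 13 and PICALM (a clathrin-assembly protein) 11. CTNND1 (p120-catenin) and KIF21A (a kinesin motor) held 7 each, the growth-factor receptor FGFR2 6, the kinase MAP3K7 (TAK1) 5, and the cytokinesis regulator ECT2 4. SYNE2, which encodes the nuclear-envelope spectrin-repeat protein nesprin-2 and had the longest covered span, 373 kb, held a single site. Per 10 kb of covered span, ENAH had 2.64 sites, CLSTN1 1.38 and SYNE2 0.027, so the order by density put CLSTN1 above EPB41 (0.99).

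**Figure D1:**
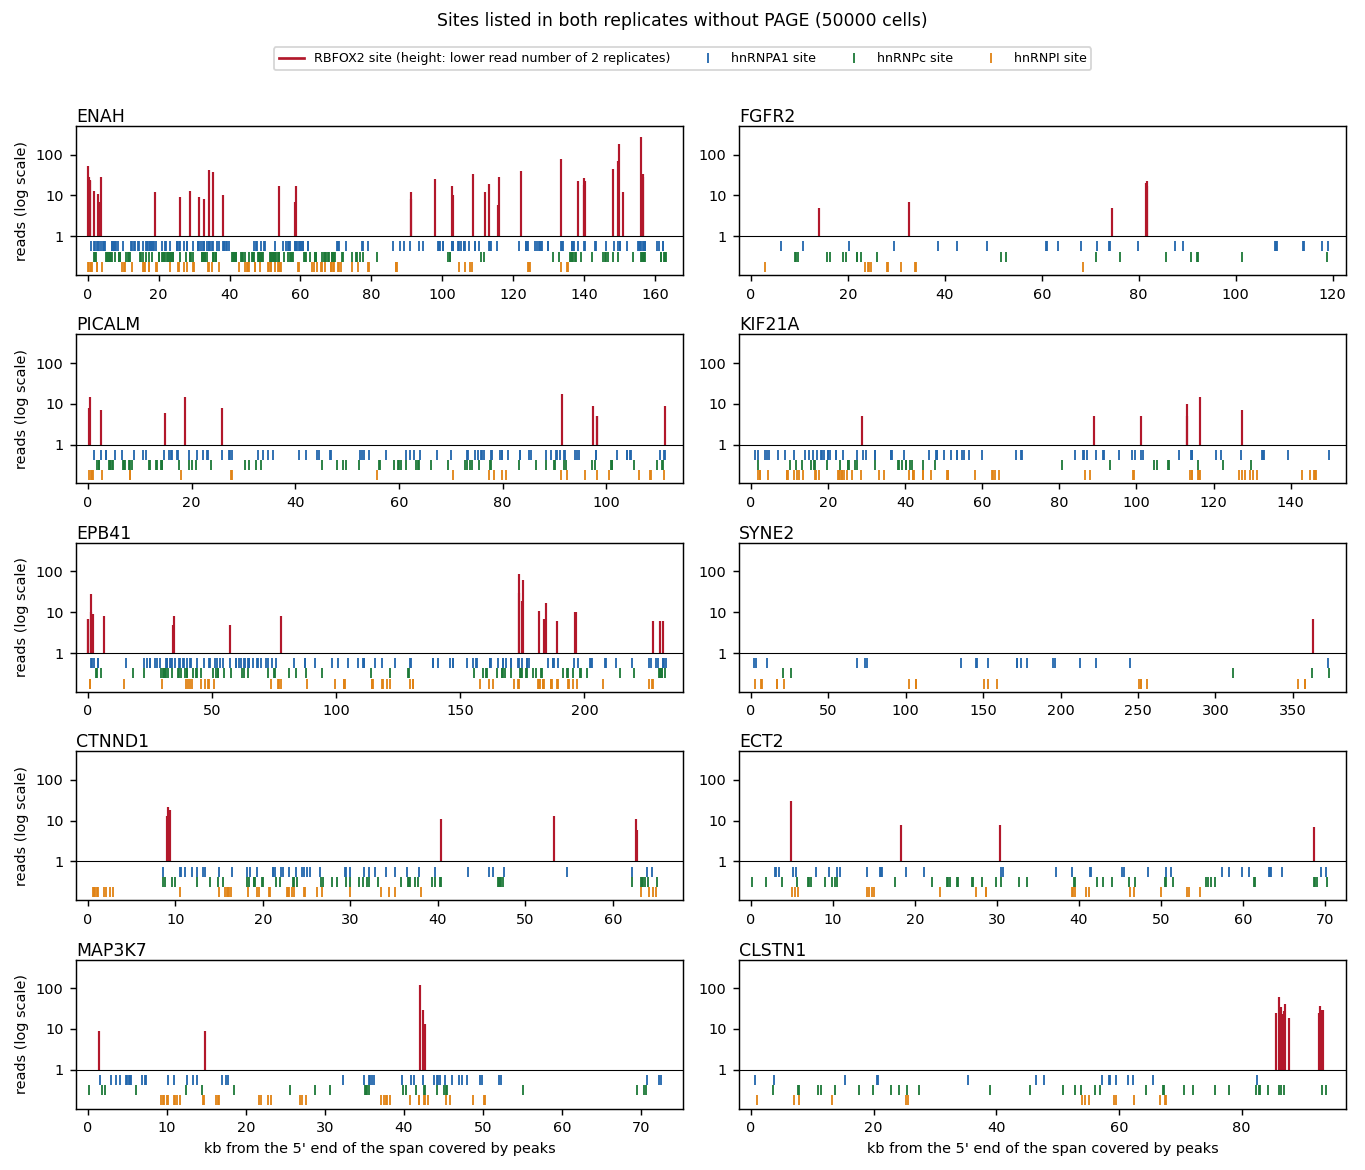
Sites listed in both replicates without PAGE at 50000 cells, by distance in kb from the 5′ end of the covered span (first to last listed peak). Red lines are RBFOX2 sites, with the lower read number of the 2 replicates on a log axis, and ticks below are sites of the other proteins; all 13 CLSTN1 sites lie 85.5 to 93.2 kb along a span of 94.2 kb, while the 43 ENAH sites run over nearly its whole length.

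FGFR2, MAP3K7 and EPB41 had their strongest sites packed into a short stretch. In FGFR2, whose mutually exclusive exons define its ligand specificity, the 3 sites with the highest read numbers lay within 425 nt, at chr10:123275968-123276018, chr10:123276063-123276109 and chr10:123276199-123276392. In MAP3K7 the 3 strongest sites lay within 706 nt, led by chr6:91254351-91254546. In EPB41 they lay within 1958 nt, at chr1:29387036-29387290, chr1:29387432-29387523 and chr1:29388781-29388993. All 13 CLSTN1 sites lay near the 3′ end of its covered span, 85.5 to 93.2 kb from the 5′ end of 94.2 kb, led by chr1:9797202-9797439. In PICALM, by contrast, the 3 strongest sites were 91129 nt apart from end to end. This distance was 44192 nt in CTNND1, 25610 nt in ECT2, 23059 nt in ENAH, 14421 nt in KIF21A and 6967 nt in CLSTN1. How often the strongest sites lie this close over all genes was not counted. The read number of a peak is the last number in its name; its meaning is not stated in the sources used here, and it was read as reads because it fell as the p-value rose.

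ENAH held the sites with the most reads. The leading ENAH site, chr1:225684203-225684799, had 270 and 304 reads in the 2 RBFOX2 libraries without PAGE that defined it. It had 396 and 400 reads with RecJ, 281 and 158 with PAGE, 161 and 126 from 10000 cells, and 29 and 37 from 1000 cells. The second, chr1:225690672-225690978, had 234 and 179 reads without PAGE, and the third, chr1:225707057-225707261, had 90 and 80. By the lower of the 2 read numbers the first and second were the strongest of the 120 sites. All 3 were listed in all 8 further crosslinked RBFOX2 libraries (RecJ, PAGE, 10000 and 1000 cells). They also had a peak in all 4 RBFOX2 libraries without ultraviolet light, where the leading site had 46, 20, 49 and 80 reads. hnRNPA1 listed the leading site in all 6 of its libraries at 50000 cells (PAGE at 0.005 U, without PAGE, RecJ), with 237 and 283 reads without PAGE, and hnRNPc in 5 of 6, with 91 and 95. RBFOX2, hnRNPA1, hnRNPc and uncrosslinked RBFOX2 libraries thus all had peaks at this place, and hnRNPI had none.

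EPB41 showed a different pattern. Its leading site, chr1:29387036-29387290, had 85 and 108 reads without PAGE, 147 and 129 with PAGE, 136 and 144 from 10000 cells and 40 and 48 from 1000 cells. Of the 4 RBFOX2 libraries without ultraviolet light only 1 listed it, with 10 reads. hnRNPI listed it in 6 of 6 libraries at 50000 cells, at 19 and 18 reads without PAGE, hnRNPA1 in 1 and hnRNPc in none. The neighbouring site chr1:29388781-29388993 had 60 and 89 reads for RBFOX2 without PAGE and 7 and 6 from 1000 cells.

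For the adhesion gene CTNND1 the leading site, chr11:57529882-57529955, had 31 and 22 reads without PAGE, 80 and 52 with PAGE and 10 and 15 from 1000 cells. None of the 18 libraries of the other proteins at 50000 cells (PAGE at 0.005 U, without PAGE, RecJ) had a peak on it, while 3 of the 4 uncrosslinked RBFOX2 libraries did, with 5 to 7 reads. Its peaks carry the identifiers of 2 overlapping genes (ENSG00000254462, ENSG00000254732) beside that of CTNND1, so the reads cannot be assigned to 1 of them. KIF21A had weaker sites: chr12:39720641-39720729 had 15 and 26 reads without PAGE, and no peak from 1000 cells in either library. The single SYNE2 site, chr14:64682835-64682878, had 9 and 7 reads without PAGE, 11 and 12 with PAGE, and no peak in any library of the other proteins at 50000 cells. It was at the low end of the 120 sites, whose lower read number had a median of 13.

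Among the signalling genes, MAP3K7 had 1 dominant site. chr6:91254351-91254546 had 155 and 121 reads without PAGE, 135 and 123 with RecJ, 209 and 156 with PAGE, 131 and 107 from 10000 cells and 18 and 47 from 1000 cells. hnRNPI listed it in 4 of 6 libraries at 50000 cells with 19 and 11 reads without PAGE, hnRNPA1 in 1 of 6 and hnRNPc in none. The third MAP3K7 site, chr6:91253841-91253849, was 9 nt wide and went the other way: no further RBFOX2 library listed it, while hnRNPI listed it in all 6. In FGFR2 the widest site, chr10:123276199-123276392, had 51 and 20 reads without PAGE, 95 and 57 with PAGE, 70 and 70 from 10000 cells and 13 and 19 from 1000 cells. It had no peak in the 4 RBFOX2 libraries without ultraviolet light or in any hnRNPA1 or hnRNPc library at 50000 cells. hnRNPI listed it in 4 of 6. Only this 1 of the 6 FGFR2 sites (16.7%) had a peak in both libraries with PAGE, against 51.2% of sites over all genes. Another FGFR2 site had the highest lower read number without PAGE, 22. The leading ECT2 site, chr3:172473363-172473446, had 39 and 31 reads without PAGE, 84 and 87 with PAGE, 70 and 92 from 10000 cells and 24 and 31 from 1000 cells. None of the 18 libraries of the other proteins listed it, and 1 of the 4 uncrosslinked RBFOX2 libraries did, with 5 reads.

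The membrane-traffic genes also had sites seen with RBFOX2 at every cell number. The leading PICALM site, chr11:85688755-85688789, had 20 and 17 reads without PAGE, 37 and 48 from 10000 cells and 6 and 10 from 1000 cells, and no peak in the other proteins' 18 libraries or the 4 uncrosslinked RBFOX2 libraries. CLSTN1 had 62 and 61 reads at chr1:9797202-9797439 and 42 and 49 at chr1:9796309-9796383 without PAGE. At the first of these hnRNPc listed peaks in 5 of 6 libraries, with 21 and 16 reads without PAGE, and hnRNPA1 in 3 of 6. The site chr1:9790473-9790544 had 36 and 61 reads without PAGE and no peak in either RBFOX2 library with PAGE.

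**Figure D2:**
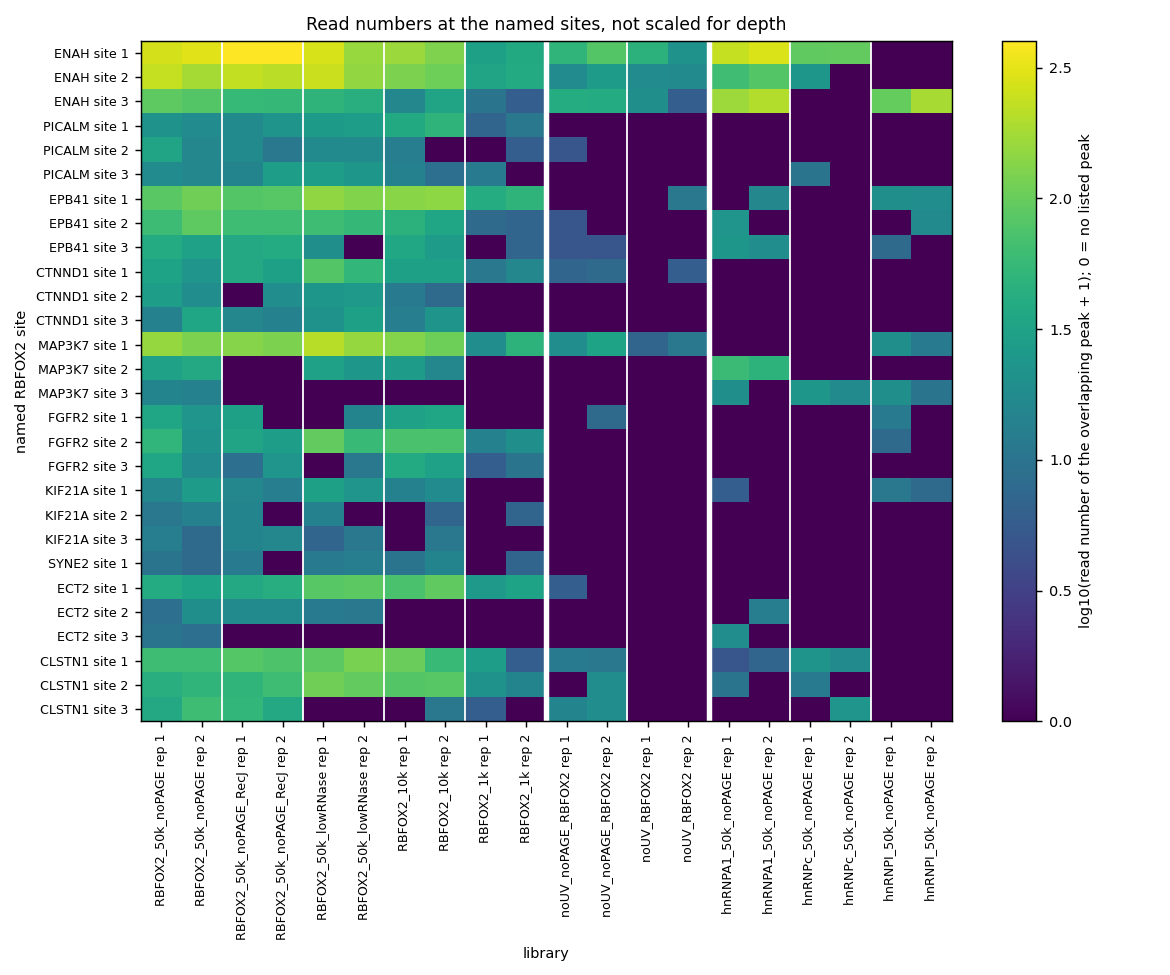
Read numbers at the 28 named sites (up to 3 per gene, numbered by rank) in 14 RBFOX2 and 6 other libraries, as log10(reads + 1), not scaled for depth. ENAH sites 1 to 3 and MAP3K7 site 1 are listed in every RBFOX2 library, including those without ultraviolet light, whereas PICALM site 1 and FGFR2 site 2 are dark in the uncrosslinked libraries.

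Sites in the 10 genes were listed again in other RBFOX2 libraries about as often as sites of all genes at high input, and more often at the lowest. With PAGE, 50.8% of the 120 sites had a peak in both replicates, against 51.2% of the 62725 sites in all genes. With RecJ the shares were 56.7% and 55.4%, and from 10000 cells 41.7% and 37.0%. From 1000 cells 26 of the 120 sites (21.7%) had a peak in both libraries, against 10.1% over all genes. All 8 of these libraries listed 23 of the 120 sites (19.2%), against 8.59% over all genes. The 23 included 10 in ENAH, 5 in EPB41, 3 in CLSTN1 and 1 each in PICALM, CTNND1, MAP3K7, FGFR2 and ECT2; KIF21A and SYNE2 had none. The median lower read number of the sites was 13 in the 10 genes and 14 over all genes. These shares are descriptions, with no test.

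**Figure D3:**
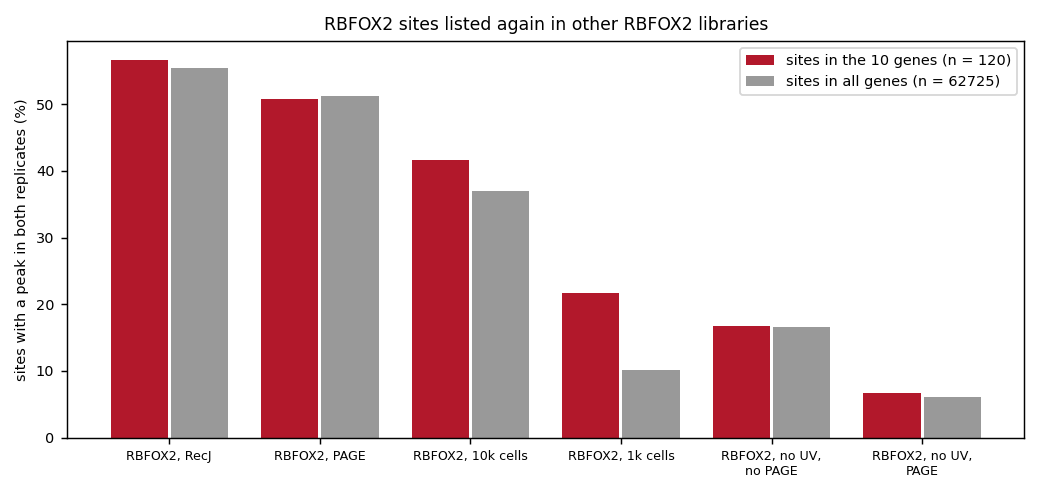
Share of RBFOX2 sites (%) that had a peak in both replicates of other RBFOX2 groups, for the 120 sites in the 10 genes (red) and the 62725 sites in all genes (grey). The bars are close to each other except from 1000 cells, where they stand at 21.7% and 10.1%.

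Without ultraviolet light, at least 1 of the 4 RBFOX2 libraries listed 40 of the 120 sites (33.3%), against 37.9% over all genes. All 4 listed 7 of them (5.83%, against 5.15%), of which 6 were ENAH sites and 1 was the leading MAP3K7 site. No PICALM, FGFR2, SYNE2 or ECT2 site had a peak in both replicates of either uncrosslinked RBFOX2 group. At least 1 of the 4 libraries listed 7 of 13 CLSTN1 sites (53.8%) and 21 of 43 ENAH sites (48.8%). In each of the other genes the share was at most 25% (ECT2).

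The other proteins' sites, defined in the same way, overlapped RBFOX2 sites in the 10 genes in 52 of 120 cases (43.3%, overlap of at least 1 nt), against 32.5% over all genes. When the RBFOX2 sites were moved 1000 nt along the strand, the shares were 20.0% in the 10 genes and 18.3% over all genes. hnRNPA1 sites overlapped 22.5% (18.3% over all genes), hnRNPc sites 16.7% (9.98%) and hnRNPI sites 13.3% (13.8%). ENAH accounted for 28 of the 52 overlapped sites: only 15 of its 43 sites had no other protein's site on them. All 6 FGFR2 sites, 6 of 7 CTNND1 sites, 6 of 7 KIF21A sites and the SYNE2 site were free of the other proteins' sites. With sites taken from the RecJ libraries instead, 55 of 129 sites (42.6%) were overlapped, against 32.2% over all genes. There hnRNPI sites overlapped 21.7% (13.4% over all genes), hnRNPA1 sites 17.1% (18.4%) and hnRNPc sites 11.6% (9.52%), so the order of the proteins was not the same. In that set 2 of 7 FGFR2 sites and 4 of 10 CTNND1 sites were overlapped. Read the other way, 27 of the 632 hnRNPA1 sites, 21 of the 529 hnRNPc sites and 16 of the 366 hnRNPI sites in the 10 genes were overlapped by an RBFOX2 site.

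When a peak in any of a protein's 6 libraries at 50000 cells was counted, hnRNPA1 touched 33 of 43 ENAH sites (76.7%), hnRNPc 22 (51.2%) and hnRNPI 13. Of the 13 CLSTN1 sites, hnRNPc touched 11 (84.6%), hnRNPA1 9 (69.2%) and hnRNPI 1. Of the 23 EPB41 sites, hnRNPI touched 13 (56.5%), hnRNPA1 9 and hnRNPc 5. Of the 6 FGFR2 sites, hnRNPI touched 2, and hnRNPA1 and hnRNPc none. Differences between genes in these counts were not tested. Over all genes the shares were 45.1% for hnRNPA1, 30.2% for hnRNPc and 38.5% for hnRNPI. In the 10 genes 26 sites (21.7%) had no peak in any of the 18 libraries, against 31.8% over all genes; 7 of them were in EPB41, 5 in ENAH and 4 in FGFR2.

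The strength of each site was then compared between proteins in the RecJ libraries, which had not defined the sites. Reads were scaled per 1000000 listed reads, a site without a peak was given 0, and log2(value + 1) was tested with limma (RBFOX2 minus the mean of the 3 other proteins, 62725 sites, adjusted by Benjamini-Hochberg). Of the 120 sites, 48 were higher in RBFOX2 and 10 lower at adjusted p below 0.05, while over all sites 43.6% were higher and 3.65% lower. The share of higher sites in the 10 genes, 40.0%, was thus near the background. Every site had been chosen for a peak in both RBFOX2 libraries without RecJ, a choice that in itself favours higher values for RBFOX2. Leaving out 1 library at a time gave 5 to 11 lower sites, with 5 without RBFOX2 RecJ replicate 1 and 5 without hnRNPI RecJ replicate 1. Sites at 0 in whole groups have almost no spread in this model, so their p-values are too small. With the spread not allowed below the median of listed sites (an alternative chosen after seeing the data), 45 were higher and 6 lower. Over all 62725 sites the same setting gave 25816 higher (41.2%) and 1264 lower.

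By gene, as a description with no test between genes, the counts were as follows. In CLSTN1 11 of 13 sites were higher, in ENAH 19 of 43 with 4 lower, and in EPB41 6 of 23 with 3 lower. PICALM had 3 of 11 higher with 1 lower, CTNND1 2 of 7, KIF21A 2 of 7, FGFR2 2 of 6, ECT2 2 of 4 and MAP3K7 1 of 5 with 2 lower. With the limit on the spread, ENAH had 16 higher and 2 lower, PICALM 3 and 0, and MAP3K7 1 and 1. The counts of the other genes stayed the same. The SYNE2 site did not pass, with a log2 difference of 0.54 ± 0.28 (SE, adjusted p = 0.18, limma).

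The named sites had been picked by their RBFOX2 read numbers without PAGE, a choice that further favours higher RBFOX2 values with RecJ. Their adjusted p-values, here and in the next paragraph, are descriptive for that reason. Among the named sites the second ENAH site had the largest difference. It stood at 23.4 and 25.0 reads per 1000000 in the RBFOX2 RecJ libraries, at 2.37 and 4.19 for hnRNPc and at 0 for hnRNPA1 and hnRNPI, a log2 difference of 3.97 ± 0.17 (SE, adjusted p = 3.8e-05, limma). The leading MAP3K7 site had 13.6 and 14.2 for RBFOX2, 1.24 and 0 for hnRNPI and 0 for the rest, a difference of 3.70 ± 0.31 (adjusted p = 0.00044). At the leading ENAH site RBFOX2 had 39.8 and 46.3 and hnRNPA1 19.3 and 19.3, with a difference of 2.88 ± 0.09 (adjusted p = 1.6e-05). The RBFOX2 libraries lay above all 6 others at these sites. At the third ENAH site they did not: RBFOX2 had 5.42 and 6.13, hnRNPA1 17.5 and 15.9, and both hnRNPI libraries were also higher, at up to 14.0. There the log2 difference was 0.11 ± 0.08 (adjusted p = 0.33).

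EPB41 and CLSTN1 had several sites of this kind. The leading EPB41 site had 7.93 and 9.71 reads per 1000000 for RBFOX2 and at most 1.92 in any other library, a log2 difference of 2.79 ± 0.08 (SE, adjusted p = 1.4e-05, limma). The leading CLSTN1 site had 8.23 and 8.67 for RBFOX2 and 1.92 and 1.70 for hnRNPc, a difference of 2.74 ± 0.05 (adjusted p = 6.8e-06). The leading ECT2 site had 3.61 and 4.74 for RBFOX2 and no peak in the other 6 libraries (2.36 ± 0.10, adjusted p = 4.1e-05), and the leading CTNND1 site 3.61 and 3.35 with none in the others (2.16 ± 0.06, adjusted p = 1.4e-05). The widest FGFR2 site had 3.21 and 3.24 for RBFOX2 and 1.58 and 0.589 for hnRNPI, a difference of 1.74 ± 0.19 (adjusted p = 0.0013). These 5 sites kept an adjusted p of at most 0.0048 with the spread floor, and so did the leading PICALM site, with 1.61 and 2.43 for RBFOX2 and 0 elsewhere. The other named FGFR2 sites had differences of 1.34 ± 0.26 (adjusted p = 0.011, limma) and 0.77 ± 0.63 (adjusted p = 0.38). A difference on this scale understates the change of sites with few reads.

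At the level of whole genes, RBFOX2 did not have a larger share of its peaks in these genes than the other proteins. The 10 genes took 0.176% and 0.175% of the RBFOX2 peaks without PAGE, against 0.219% to 0.247% for hnRNPA1 and hnRNPc and 0.187% to 0.190% for hnRNPI. Each gene's peaks per 10000 listed peaks were compared as log2(value + 0.05) with limma, RBFOX2 minus the mean of the other 3 proteins. Without PAGE 2 of the 10 genes were higher with RBFOX2 and 7 lower, while of 9854 genes tested 36.1% were higher and 42.6% lower. The median difference was -0.38 over the 10 genes and -0.14 over all genes. Against hnRNPA1 alone 1 gene was higher and 6 lower (31.7% and 40.8% over all genes), against hnRNPc alone 0 and 6 (29.7% and 41.1%), and against hnRNPI alone 2 and 4 (40.2% and 37.6%).

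CLSTN1 was the clearest gene on the higher side. RBFOX2 had 1.59 and 1.73 CLSTN1 peaks per 10000 (25 and 28 peaks), hnRNPA1 0.921 and 0.955, hnRNPI 0.792 and 0.731, and hnRNPc 2.11 and 2.06. RBFOX2 therefore lay above hnRNPA1 and hnRNPI and below hnRNPc. Against the mean of the 3 the log2 difference was 0.52 ± 0.10 (SE, adjusted p = 0.00078, limma), against hnRNPI 1.08, against hnRNPA1 0.79 and against hnRNPc -0.32. With RecJ it was 0.75 ± 0.18 (adjusted p = 0.0030).

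For ENAH, RBFOX2 lay close to hnRNPA1 and hnRNPc. RBFOX2 had 5.53 and 5.39 ENAH peaks per 10000, hnRNPA1 5.12 and 5.14, hnRNPc 5.73 and 5.53, and hnRNPI 4.22 and 3.86. The RBFOX2 values lay within the range of the others. The log2 difference of 0.16 ± 0.06 (adjusted p = 0.031, limma) came with a difference of 0.43 against hnRNPI, 0.09 against hnRNPA1 and -0.04 against hnRNPc. It did not pass when any 1 of 5 libraries was left out (adjusted p = 0.059 to 0.084: RBFOX2 replicate 1, either hnRNPA1 replicate, hnRNPI replicate 2 or hnRNPc replicate 2). It turned to -0.63 when only peaks with p below 1e-05 were counted, where the median of all genes was -0.60, and to -1.79 when reads over the peaks were counted, where that median was -1.40.

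**Figure D4:**
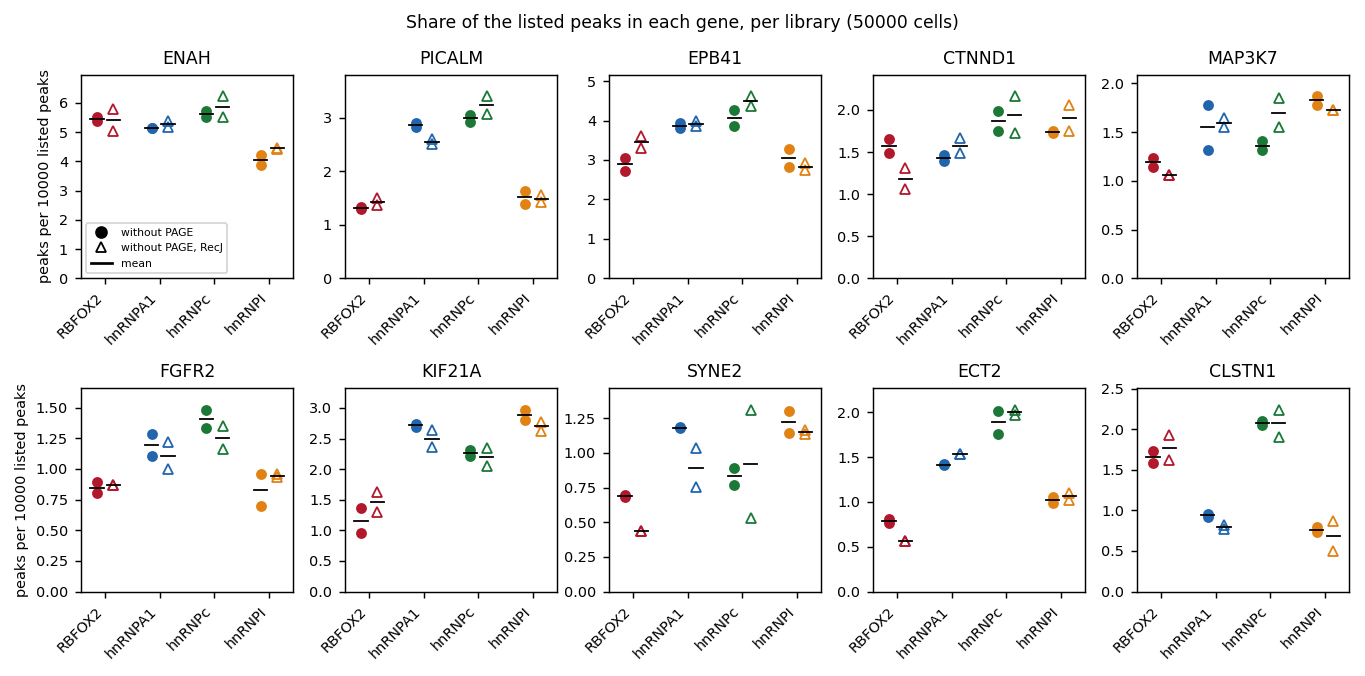
Peaks in each gene per 10000 listed peaks in each library at 50000 cells, without PAGE (filled circles) and with RecJ (open triangles), with bars at the means of 2 libraries. RBFOX2 (red) is lowest for KIF21A and ECT2, next to hnRNPI for PICALM, and second to hnRNPc for CLSTN1.

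The genes on the lower side were led by KIF21A, PICALM and ECT2. RBFOX2 had 0.953 and 1.36 KIF21A peaks per 10000, below the lowest other library (2.22), with a log2 difference of -1.16 ± 0.12 (SE, adjusted p = 7.5e-06, limma). PICALM had 1.33 and 1.30 with RBFOX2, near hnRNPI (1.39 and 1.64) and under hnRNPA1 and hnRNPc (2.82 to 3.06), with a difference of -0.81 ± 0.09. ECT2 had 0.763 and 0.805, against 0.99 to 2.02 in the others, with a difference of -0.80 ± 0.11. How often groups separate over all genes was not counted, here or in later comparisons. For these 3 genes the RBFOX2 libraries lay below all 6 others. So they did for SYNE2 (0.699 and 0.681; -0.59 ± 0.12) and MAP3K7 (1.14 and 1.24; -0.38 ± 0.12).

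EPB41 (3.05 and 2.73 peaks per 10000; -0.33 ± 0.08) and FGFR2 (0.890 and 0.805; -0.38 ± 0.14) were also lower, but their RBFOX2 values overlapped those of hnRNPI. CTNND1 (1.65 and 1.49) had a log2 difference of -0.09 ± 0.10 (SE, adjusted p = 0.42, limma). FGFR2 did not pass without RBFOX2 replicate 2, hnRNPA1 replicate 1, hnRNPI replicate 1 or hnRNPc replicate 2 (adjusted p = 0.052 to 0.097), nor MAP3K7 without RBFOX2 replicate 1 (adjusted p = 0.051). With precision weights, an alternative chosen after seeing the data, ENAH (adjusted p = 0.066), MAP3K7 (0.056) and FGFR2 (0.095) did not pass.

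The RecJ libraries gave 1 higher gene (CLSTN1) and 7 lower, against 35.6% and 40.9% of 9653 genes tested. ECT2 had the largest difference, with 0.559 and 0.561 peaks per 10000 against 1.02 to 2.03 in the others and a log2 difference of -1.33 ± 0.11 (SE, adjusted p = 1.6e-06, limma). CTNND1 was lower here (1.06 and 1.31; -0.59 ± 0.13, adjusted p = 0.0018), while ENAH (0.06 ± 0.08) and EPB41 (-0.09 ± 0.08) did not pass. FGFR2 (-0.31 ± 0.13, adjusted p = 0.046) did not pass without any 1 of 6 libraries (adjusted p = 0.069 to 0.10; each library but hnRNPA1 replicate 1 and hnRNPc replicate 1). It turned to 0.56 (adjusted p = 0.041) with peaks of p below 1e-05.

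With PAGE, none of the 10 genes passed the test in limma, with 0 of 10 also at an unadjusted p below 0.05, while 7.79% of 9321 genes were higher and 0.161% lower. In the short hnRNPc list 6 of the 10 genes had no peak, and ENAH stood at 39.8 peaks per 10000. Without that library all 10 genes passed, 3 higher and 7 lower, against 33.9% and 33.2% of all genes; the 1 remaining hnRNPc library is then taken to have the spread of the other groups. Leaving out the other hnRNPc library instead keeps only the short list for that protein. The median log2 difference over all genes was then 1.07, against -0.04 without the short list. Among the 10 genes CLSTN1 then stood at 2.30 and MAP3K7 at -1.03.

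With the short list left out, ECT2 had the largest difference with PAGE. It stood at 0.422 and 0.384 peaks per 10000 for RBFOX2, at 1.51 and 1.65 for hnRNPA1, at 1.86 for hnRNPc and at 1.05 and 0.747 for hnRNPI, a log2 difference of -1.66 ± 0.16 (SE, adjusted p = 7.0e-06, limma). SYNE2 stood at 0.729 and 0.864 for RBFOX2, beside 0.757 and 0.478 for hnRNPA1, 0.863 and 0.849 for hnRNPI and 0.140 for hnRNPc. The RBFOX2 values thus overlapped those of hnRNPA1 and lay near those of hnRNPI, while the single hnRNPc value was far lower; the difference was 0.81 ± 0.20 (adjusted p = 0.0040). CLSTN1 (0.63 ± 0.13) and FGFR2 (0.31 ± 0.13) were the other 2 higher genes. PICALM (-0.70), KIF21A (-0.69), MAP3K7 (-0.65), CTNND1 (-0.49), ENAH (-0.43) and EPB41 (-0.36) were lower.

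The contrast of RBFOX2 with the other proteins differed between protocols for some genes. The difference without PAGE minus that with PAGE was tested in 1 limma fit without the short list, an alternative chosen after seeing the data. It passed for 5 of the 10 genes, against 31.6% of 10320 genes. SYNE2 moved most, from 0.81 with PAGE to -0.59 without, a change of -1.39 ± 0.23 (SE, adjusted p = 0.00027). FGFR2, KIF21A, ECT2 and ENAH also passed. CLSTN1 (-0.11, adjusted p = 0.64), PICALM (-0.11, adjusted p = 0.64), EPB41 (0.03, adjusted p = 0.85), MAP3K7 (0.27, adjusted p = 0.24) and CTNND1 (0.40, adjusted p = 0.068) did not.

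**Figure D5:**
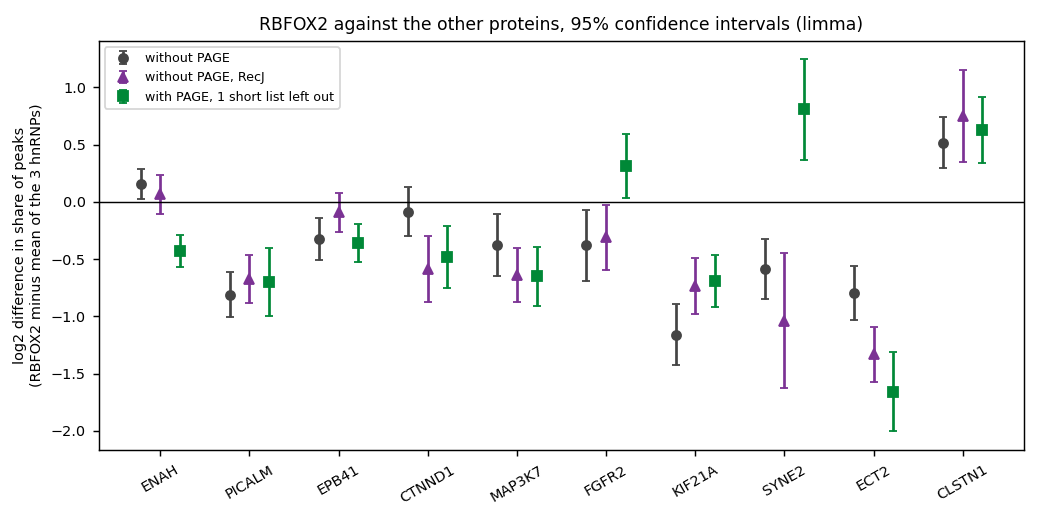
Log2 difference in peaks per 10000 listed peaks (+ 0.05) between RBFOX2 and the other proteins for each of the 10 genes, with 95% intervals from limma; the interval covers the spread between libraries. CLSTN1 lies above 0 without PAGE (0.52), with RecJ (0.75) and with PAGE (0.63, short hnRNPc list left out), while SYNE2 and FGFR2 lie below 0 without PAGE and above it with PAGE.

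From fewer cells only hnRNPc was available for comparison. From 10000 cells 1 gene was higher with RBFOX2 and 4 lower, against 28.7% and 35.9% of 6840 genes. ENAH had 4.48 and 4.84 peaks per 10000 for RBFOX2 and 8.88 and 9.28 for hnRNPc, a log2 difference of -0.96 ± 0.09 (SE, adjusted p = 0.00031, limma). PICALM (1.57 and 1.19 against 3.74 and 3.29; -1.33 ± 0.17), ECT2 (0.498 and 0.597 against 1.89 and 1.57; -1.57 ± 0.20) and CTNND1 (1.35 and 1.49 against 2.50 and 2.62; -0.83 ± 0.13) were lower too, with no overlap between the proteins. SYNE2 was higher (1.14 and 1.67 against 0.681 and 0.749; 0.91 ± 0.23, adjusted p = 0.014). It did not pass without RBFOX2 replicate 2 (adjusted p = 0.071) or hnRNPc replicate 1 (adjusted p = 0.052).

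From 1000 cells 9 of the 10 genes passed the filter on low values, and SYNE2 did not. ECT2 (-1.90 ± 0.36), PICALM (-1.57 ± 0.22), ENAH (-0.70 ± 0.12) and EPB41 (-0.66 ± 0.15) were lower with RBFOX2 and none was higher, against 21.3% and 12.7% of 4815 genes. The adjusted p-values of these 4 genes in limma ran from 0.0097 to 0.031. Without hnRNPc replicate 1 or replicate 2 none of them passed (adjusted p = 0.16 to 0.33).

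The share of a gene's reads that lay in its highest peak is given as a description, without a test. Without PAGE the highest peak of a gene held a median of 13.5% and 14.0% of that gene's listed reads over the 10 genes, against 4.17% and 3.83% for hnRNPA1, 3.49% and 2.99% for hnRNPc and 9.35% and 8.43% for hnRNPI. In MAP3K7 it held 44.9% and 33.7%. Over all genes with at least 10 peaks the RBFOX2 medians were 12.9% and 12.6%, close to those of the 10 genes. Fewer peaks per gene go with a higher share: among genes with 10 to 30 peaks, the medians were 14.1% and 13.9% for RBFOX2 13.9% and 13.9% for hnRNPA1, 12.4% and 12.5% for hnRNPc, and 16.7% and 16.7% for hnRNPI.

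The crosslinked RBFOX2 libraries were also compared with the uncrosslinked RBFOX2 libraries in these genes. Without PAGE 2 genes had a larger share of peaks with crosslinking and 1 a smaller share, against 24.3% and 21.4% of 4982 genes. SYNE2 had 11 and 11 peaks in the crosslinked libraries and 31 and 25 in the shorter uncrosslinked lists. These are 0.699 and 0.681 peaks per 10000 with ultraviolet light against 5.87 and 4.08 without it, a log2 difference of -2.74 ± 0.22 (SE, adjusted p = 0.0012, limma). SYNE2 also had a high share in the uncrosslinked hnRNPA1 libraries without PAGE, at 4.88 and 4.18.

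FGFR2 and EPB41 went the other way. FGFR2 had 0.890 and 0.805 peaks per 10000 with crosslinking and 0.378 and 0.163 without, from 2 and 1 peaks, a log2 difference of 1.57 ± 0.49 (SE, adjusted p = 0.049, limma). EPB41 had 3.05 and 2.73 against 2.08 and 1.96, a difference of 0.50 ± 0.14 (adjusted p = 0.039). The groups did not overlap for these 3 genes. None of the 3 passed when either crosslinked replicate was left out, with adjusted p = 0.088 for SYNE2 in both cases.

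With PAGE, 9 genes passed the filter on low values; 2 were lower with crosslinking and none was higher, against 14.5% and 23.6% of 6090 genes, whose median difference was 1.40. SYNE2 was lower again (0.729 and 0.864 against 2.32 and 2.62; -1.58 ± 0.20, SE, adjusted p = 0.0088, limma). ENAH had 5.26 and 5.04 peaks per 10000 with crosslinking and 9.61 and 12.7 without, a log2 difference of -1.09 ± 0.23 (adjusted p = 0.033). SYNE2 did not pass without crosslinked replicate 1 (adjusted p = 0.053), nor ENAH without either crosslinked replicate (adjusted p = 0.48 and 0.50). The direction of the count was not stable. With reads in place of peaks 3 of 9 genes were higher and 1 lower, against 2793 and 261 of 6090 over all genes. With peaks of p below 1e-05, where 7 were tested, the counts were also 3 and 1, against 1455 and 425 of 3267. Without uncrosslinked replicate 1 the log2 difference was 1.49 for PICALM and 4.65 for KIF21A, with a median of 0.91 over all genes. Without uncrosslinked replicate 2 these values were 4.77, 0.82 and 0.79. SYNE2 and ENAH stayed lower in both cases. With reads, ENAH had a log2 difference of -0.15 ± 0.14 (SE, adjusted p = 0.37, limma). The uncrosslinked counts are small, with 58 and 51 peaks over the 10 genes.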

How the data were processed

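The data are lists of CLIP peaks from 68 libraries in 34 groups of 2. Per the submitters' processing notes, reads were handled with bcl2fastq, UMI-tools 1.0.1 and STAR 2.7.3a on hg19; no source used here gives their settings. Each list, as deposited by the authors, gives for every peak its position, strand, a p-value from the authors' peak caller, and a name made of a gene identifier and numbers. The last number of the name was read as the number of reads in the peak, because it falls as the p-value rises.

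Peaks were assigned to genes by the identifier before the dot. Peaks per gene were scaled to 10000 listed peaks and tested as log2(value + 0.05) with limma 3.58.1 in R 4.3.3 (trend, Benjamini-Hochberg over all genes with at least 10 peaks in at least 2 of the libraries compared). RBFOX2 was set against the mean of the other proteins at 50000 cells, against hnRNPc at 10000 and 1000 cells, and against uncrosslinked RBFOX2 libraries. Sites were built and overlapped with bedtools 2.31.1 (at least 1 nt), and site reads were scaled per 1000000 listed reads and tested as log2(value + 1) in RecJ libraries over all 62725 sites. Both fits were tested on simulated data. Intervals cover the spread between libraries only, and no counting interval was made since the depth is unknown.

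In each gene the 3 sites with the highest lower read number over both replicates were named. The genes, lists and tests were chosen with earlier results of these data known. Samples were grouped by title. Alternatives were a replicate block, another pseudocount, no filter, reads in place of peaks, joined peaks, p below 1e-05, other site definitions and each library left out; voom weights, PAGE sites, summed reads, the spread floor and the difference between protocols were added after seeing the data. A list of further RBFOX2 targets was not run, since 0 of its symbols could be matched to the identifiers. Splicing data from RBFOX2 knockout cells, which the design text mentions, were not analysed here.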

Additional observations from a re-analysis of the deposited data

Results flagged for a closer look

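For 5 genes the difference between RBFOX2 and the other proteins in peaks per 10000 listed peaks was not the same without PAGE as with PAGE, by a limma test of the change itself with the short hnRNPc list left out (adjusted by Benjamini-Hochberg over 10320 genes). The change, without PAGE minus with PAGE on the log2 scale, was -1.39 ± 0.23 (SE, adjusted p = 0.00027) for SYNE2, whose difference went from 0.81 with PAGE to -0.59 without. FGFR2 changed sign as well, from 0.31 to -0.38, a change of -0.69 ± 0.19 (adjusted p = 0.012). ENAH went from -0.43 to 0.16, a change of 0.59 ± 0.09 (adjusted p = 0.00010). ECT2 was lower with RBFOX2 under both protocols, at -1.66 and -0.80, with a change of 0.86 ± 0.19 (adjusted p = 0.0026). KIF21A was also lower under both, at -0.69 and -1.16, with a change of -0.47 ± 0.16 (adjusted p = 0.037). With PAGE the hnRNPc values rest on 1 library, in which ENAH stood at 11.4 and SYNE2 at 0.140 peaks per 10000. The part of that library in these changes was not tested. The share of all genes that passed the same test is given in the results above.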

How the results depend on the processing

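Over the 10 genes and all comparisons of gene shares, 716 of the values under other settings stayed on their side of the threshold. Of the rest, 60 no longer passed, 64 newly passed and 9 reversed. A change of sign counted as reversed only where the main or the other value passed. The 716 can therefore include changes of sign between values that did not pass. Without PAGE, ENAH turned to -1.79 with reads over peaks and -0.63 with p below 1e-05; with RecJ it turned to -1.85 and -0.76, and FGFR2 to 0.56 with p below 1e-05. With PAGE, PICALM and KIF21A turned to -0.70 and -0.70 with voom weights and to -0.70 and -0.69 without hnRNPc replicate 1, and stood at 1.25 and 1.00 without hnRNPc replicate 2. The cause was not tested.

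The number of the 10 genes that passed with PAGE was 0, but 2 with reads over peaks, 1 with p below 1e-05 and 8 with voom weights. Over all genes 741 of 9321 passed, 1725 with reads, 4973 with voom weights, and 885 of 6327 with p below 1e-05. From 10000 cells 5 passed, 8 with reads and 3 with p below 1e-05, where 5 of the 10 genes were tested. The counts over all genes were 4417 of 6840, 5747 of 6840 with reads, and 2284 of 3026 with p below 1e-05. From 1000 cells 4 passed, and 1 with p below 1e-05, where 4 were tested. All genes gave 1636 of 4815, and 432 of 1422 with p below 1e-05. For crosslinking without PAGE 3 passed, 1 without the filter and 6 with reads. The same settings gave 2273 of 4982, 4335 of 14439 and 2945 of 4982 over all genes. For crosslinking with PAGE 2 passed, 4 with reads (3 higher), 1 with joined peaks and 4 with p below 1e-05 (3 higher). Of 6090 genes 2324 passed, 3054 with reads and 2472 with joined peaks. With p below 1e-05 the count was 1880 of 3267. Leaving out 1 library at a time gave 7 to 9 genes without PAGE, 7 to 8 with RecJ, 0 to 10 with PAGE, 4 to 6 from 10000 cells, 0 to 6 from 1000 cells, 0 to 7 for crosslinking under either protocol, and 45 to 52 higher and 5 to 11 lower sites. The overlap of sites with other proteins, 43.3%, was 20.0% after moving the sites by 1000 nt and 32.3% with sites from libraries with PAGE, where only hnRNPA1 and hnRNPI sites were counted (26.5% over all genes).

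Replicate numbers do not pair the libraries: the labels give no shared day or culture, and same-numbered libraries had correlations of -0.08 to 0.06 in their deviations from group means. With a replicate block the genes passing were 9 without PAGE and 8 with RecJ, as without it, but 1 for crosslinking without PAGE and 1 with PAGE; 47 sites were higher.

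Over all genes, 7757 passed without PAGE and 12170 without the filter, and 7380 and 11732 with RecJ. With PAGE 741 passed, 3041 without the filter, 1257 with a pseudocount of 0.2, 1725 with reads, 4973 with voom weights and 304 to 7483 with 1 library left out. From 10000 cells 4417 passed, 6743 without the filter and 2284 with p below 1e-05. From 1000 cells 1636 passed, 2483 without the filter, 432 with p below 1e-05 and 80 to 3159 with 1 library left out. For crosslinking without PAGE 2273 passed, 4335 without the filter, 1340 with p below 1e-05 and 160 to 3494 with 1 library left out; with PAGE 2324 passed, 6861 without the filter and up to 4864 with 1 library left out. Counting reads moved the split without PAGE from 3561 higher and 4196 lower genes to 1974 and 7338. Groups of 2 libraries and unknown depth limit all of these comparisons.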
